A study of Saccharomyces cerevisiae with 8 samples.

Results

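Ribosomal protein genes with Gcr1 at their promoters are described here from sequencing of immunoprecipitated chromatin (ChIP-seq) for Gcr1, a transcription factor of budding yeast best known as the activator of glycolytic genes. The genes were chosen by the presence of a deposited peak: a gene was included when a peak of any list had its centre between 1000 bp upstream and 200 bp downstream of the start codon. This left 9 of 137 cytosolic ribosomal protein genes: RPL1B, RPL2A, RPL2B, RPL11A, RPL26A, RPL29, RPL42B, RPS19B and RPS24A. They accounted for 28 of 1064 listed peaks, 7 in each of the 4 lists. Since the presence of a peak chose these genes, their presence in the lists is a description and not a test.

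The study compared Gcr1(S), translated from spliced GCR1 mRNA, with Gcr1(U), translated from mRNA that retains its intron. Each form was sampled at 12 h and at 6 h of growth, with 2 replicates for each of the 4 groups and 8 samples in all. Per the labels every strain was built in BY4741, a haploid laboratory strain of the S288C background, and every strain also carried a Flag-tagged GCR2 allele marked with hphMX6. The Gcr1(S) samples came from strain JHY9321, with GCR1S-TAP marked by his3MX6, and the Gcr1(U) samples from strain JHY9311, with GCR1U-TAP marked by his3MX6, so each form is known here from 1 strain. The starting OD600 was 0.5 in YPD with 2% glucose at 30 °C. Per the labels, the 12 h cultures were past the diauxic shift, the switch to ethanol use once glucose is spent, and the 6 h cultures were growing exponentially. Tagged protein was recovered on IgG-sepharose after fixation in 1% formaldehyde for 25 min. Neither an input nor an untagged control was analysed here, so the background that does not depend on Gcr1 is not measured.

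Ribosomal protein genes encode the proteins of the large (RPL) and small (RPS) ribosomal subunits, and in yeast most of them exist as a pair of duplicate genes. Their promoters are typically bound by Rap1, which recruits Fhl1 and Ifh1, and the group is transcribed strongly in growing cells and repressed when nutrients run out. Rap1 also binds the promoters of glycolytic genes, where Gcr1 and its partner Gcr2 act. Transfer RNA genes, which appear beside 1 of the 9 sites, are transcribed by RNA polymerase III from promoters inside the gene.

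Each group of 2 replicates has 1 deposited list with no value per replicate, so values carry no replicate error, and no condition could be tested against a spread between replicates. Values are the authors' normalized tag counts, the sequenced tags in a peak's window scaled to library size. Ranges in brackets after a ratio are exact binomial 95% intervals and cover counting error only. PCR copies were not told apart by molecular identifiers, so tags are not all independent. From the even spacing of the deposited values, taken as steps of 0.5 tags, 1 unit stood for 0.582 tags in Gcr1(S) at 12 h, 1.07 in Gcr1(S) at 6 h, 1.42 in Gcr1(U) at 12 h and 1.501 in Gcr1(U) at 6 h. The Gcr1(S) list at 12 h was therefore the shallowest, and the ribosomal protein gene peaks there rested on 111 to 202 derived tags. Its usual peak window was also the narrowest, 114 bp, against 170 bp in Gcr1(S) at 6 h, 168 bp in Gcr1(U) at 12 h and 182 bp in Gcr1(U) at 6 h. A narrower window holds fewer tags, so ratios per bp of window are given beside those they change. The 12 h and 6 h lists of a form held matching peaks in the same order, so a gene present at one time was present at the other by construction.

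In each list 7 of the 137 ribosomal protein genes had a peak, or 5.11%. Among all 6002 nuclear protein-coding genes the share with a peak in the same window was 3.45% in either Gcr1(U) list, while for Gcr1(S) it was 3.08% at 12 h against 3.13% at 6 h. Both forms had a peak at 5 of the genes, RPL1B, RPL26A, RPL42B, RPS19B and RPS24A. Gcr1(S) alone had a peak at RPL2B and RPL29, and Gcr1(U) alone at RPL2A and RPL11A. Peaks listed in 1 form were common over the whole lists too. At 6 h 162 of the 233 Gcr1(S) peaks, and as many of the 299 Gcr1(U) peaks, overlapped a peak of the other form. The split at these genes is therefore not particular to them. By subunit, 5 of 76 RPL genes and 2 of 56 RPS genes had a peak in each of the lists. None of the 5 P-stalk genes (RPP0, RPP1A, RPP1B, RPP2A and RPP2B), which encode the acidic stalk of the large subunit, had one.

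The peaks were narrowly placed relative to the genes. Leaving out RPL26A, all 24 peak centres, with a gene counted once in each list that held it, lay between 191 bp and 386 bp upstream of the start codon. Their median was 303 bp. Other gene assignments away from tRNA genes had a median of 456 bp (quartiles 209 and 655 bp) in Gcr1(S) at 12 h and of 434 bp (86.3 and 685 bp) in Gcr1(U) at 6 h. Those assignments count a peak once for every gene whose window holds it. They include some of the ribosomal protein peaks again through neighbours such as MRM2 and CHS7, so they are only a rough background. RPL26A stood apart, with centres 666 to 689 bp upstream. The ribosomal protein gene nearest to the window without meeting the rule was RPL8A, where a Gcr1(U) peak was centred inside the gene, 419 bp downstream of the start codon at 12 h and 433 bp at 6 h.

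**Figure D1:**
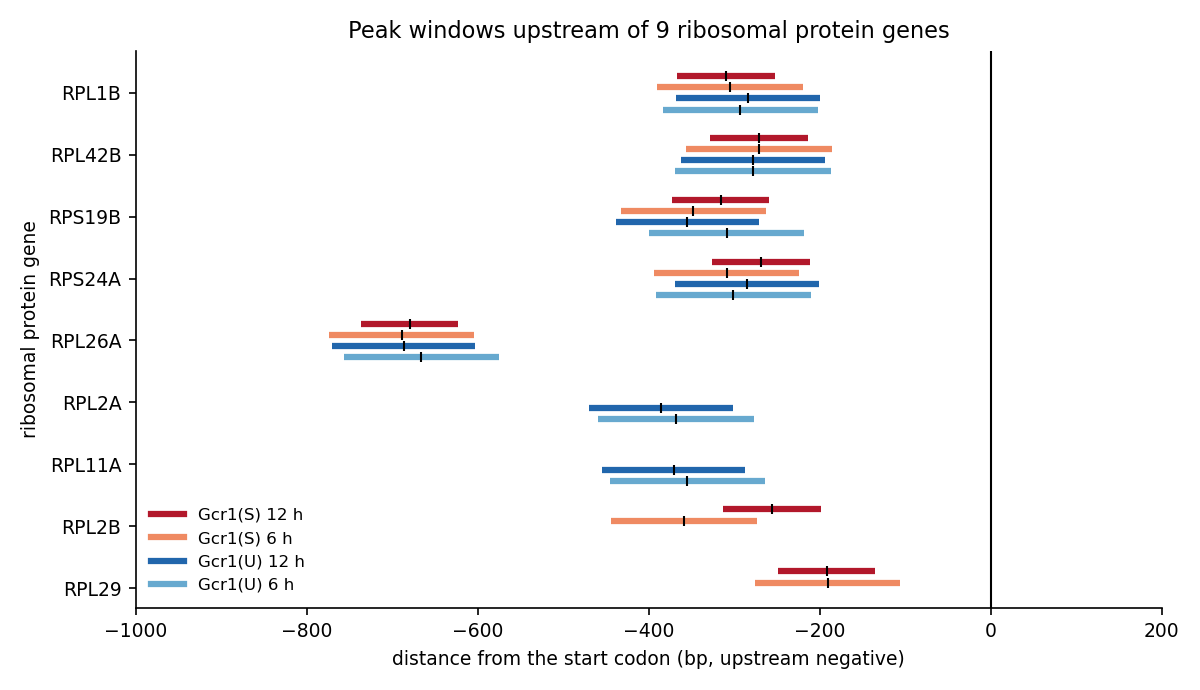
Position of each peak window (bar) and its centre (tick) relative to the start codon, in bp, at 9 ribosomal protein genes in the 4 lists. RPL26A lies 666 to 689 bp upstream, and the other centres lie 191 to 386 bp upstream.

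RPL1B encodes uL1, the protein of the mobile L1 stalk of the large subunit. In Gcr1(U) at 6 h its peak spanned chromosome VII 254257 to 254439 (sacCer3), between the divergent MRM2, a mitochondrial rRNA methyltransferase gene, and RPL1B at VII 254641 to 255294. It had 191.6 tags in Gcr1(S) at 12 h, 270.5 in Gcr1(S) at 6 h, 290.3 in Gcr1(U) at 12 h and 318.7 in Gcr1(U) at 6 h. It had the fewest tags of the 7 ribosomal protein peaks in each of the 4 lists.

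RPL42B encodes eL42, a large-subunit protein near the exit site for tRNA. Its peak in Gcr1(U) at 6 h lay at VIII 382938 to 383120, between RPL42B (381990 to 382751) and the divergent CHS7, a gene for export of a chitin synthase. It had 328.2 tags in Gcr1(S) at 12 h, 338.4 in Gcr1(S) at 6 h, 305.1 in Gcr1(U) at 12 h and 435.9 in Gcr1(U) at 6 h. Gcr1(U) was highest at 6 h and lowest at 12 h, with both Gcr1(S) values between them.

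RPS19B encodes eS19, needed for maturation of the small subunit, and the human counterpart is mutated in Diamond-Blackfan anaemia. Its peak in Gcr1(U) at 6 h lay at XIV 63161 to 63343, upstream of RPS19B and beyond the end of RPL18B, another ribosomal protein gene that lies on the same strand. It had 261.2 tags in Gcr1(S) at 12 h, 359.4 in Gcr1(S) at 6 h, 385.2 in Gcr1(U) at 12 h and 400.0 in Gcr1(U) at 6 h. RPL18B itself did not qualify, because the peak lies behind it, 1310 bp downstream of its start codon.

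RPS24A encodes eS24 of the small subunit. Its peak in Gcr1(U) at 6 h lay at V 305931 to 306113, between ALD5, a mitochondrial aldehyde dehydrogenase gene, and RPS24A. It had 305.9 tags in Gcr1(S) at 12 h, 455.7 in Gcr1(S) at 6 h, 404.6 in Gcr1(U) at 12 h and 390.3 in Gcr1(U) at 6 h. The Gcr1(S) lists held both the lowest and the highest value at this gene.

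RPL26A encodes uL24, which sits near the exit of the nascent-peptide tunnel. Its peak overlapped the tRNA gene TRR4, and in Gcr1(U) at 6 h it lay at XII 818555 to 818737, 575 bp short of RPL26A (819312 to 820142). It had 268.9 tags in Gcr1(S) at 12 h, 616.8 in Gcr1(S) at 6 h, 504.0 in Gcr1(U) at 12 h and 412.3 in Gcr1(U) at 6 h. The spread over the 4 lists was the widest of the 5 shared sites. RPL26A was the only 1 of the 7 genes in each list whose peak lay within 500 bp of a tRNA gene, where 50.6% of all Gcr1(S) peaks and 32.8% of all Gcr1(U) peaks lay. The other peaks were 2975 bp (RPL29) to 32962 bp (RPL1B) from the nearest tRNA gene.

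**Figure D2:**
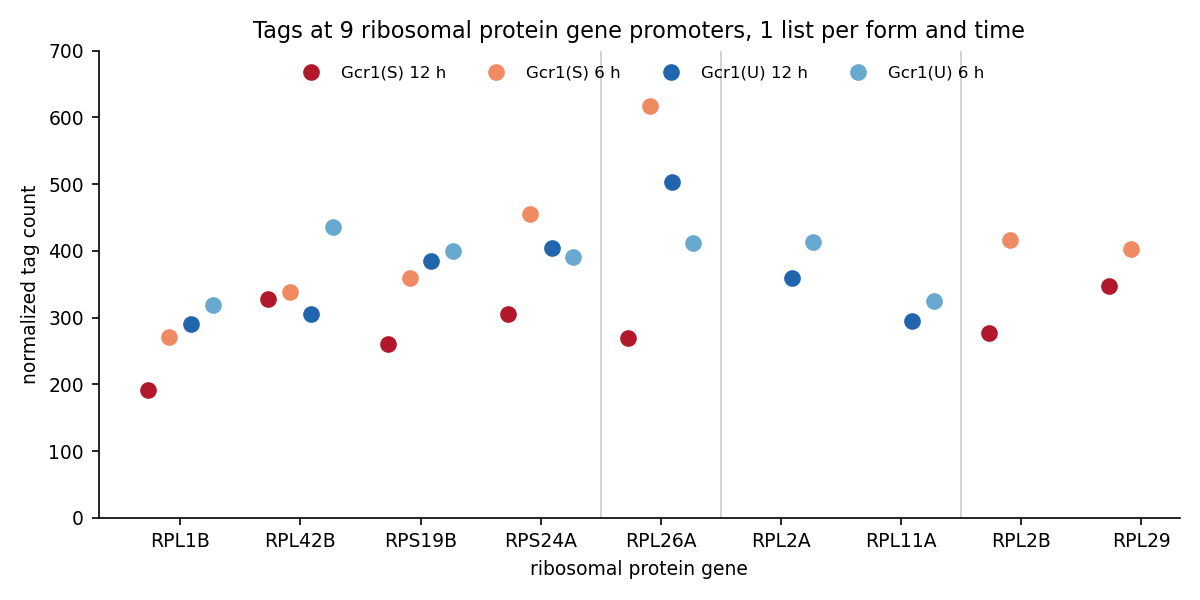
Normalized tag counts at the 9 genes in the 4 lists, 1 point per list, with no replicate error available. The 4 genes on the left and RPL26A were listed in both forms, RPL2B and RPL29 only in Gcr1(S), RPL2A and RPL11A only in Gcr1(U). For RPL26A the Gcr1(S) points stand at 268.9 tags at 12 h and 616.8 at 6 h.

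The duplicates RPL2A and RPL2B encode the same protein, uL2, which lies close to the peptidyl transferase centre, and each was listed in a different form. For Gcr1(S) the RPL2B peak had 276.7 tags at 12 h and 416.6 at 6 h, and at 6 h it spanned IX 316324 to 316494, between FAF1 and RPL2B. For Gcr1(U) the RPL2A peak had 359.4 tags at 12 h and 413.6 at 6 h, and at 6 h it spanned VI 221695 to 221877, where the window also overlapped the noncoding RNA gene RUF23. The 6 h values of the duplicates were thus close to each other although the lists belong to different forms. The Gcr1(U) peak nearest to the RPL2B start codon was 7547 bp away at 6 h.

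RPL29 encodes eL29, a small large-subunit protein from a single gene, and it lies near RPL2A on chromosome VI. The RPL29 peak of Gcr1(S) had 347.1 tags at 12 h and 403.6 at 6 h, at VI 223543 to 223713 at 6 h, where it reached the edge of the small gene MIN10. RPL29 was 192 bp from the peak centre at 12 h and 191 bp at 6 h, and its start codon lies 2019 bp from that of RPL2A. Around these genes each form had 1 peak, Gcr1(U) beside RPL2A and Gcr1(S) just beyond the RPL29 start codon, with RRT5 and RPL29 between the 2 sites. RPL11A encodes uL5, which binds 5S rRNA, and its Gcr1(U) peak at XVI 732012 to 732194 at 6 h lay between RPL11A and the divergent PRE2, a proteasome subunit gene. The window was nearer to PRE2, 146 bp away at 12 h and 155 bp at 6 h. From RPL11A it was 287 bp away at 12 h and 264 bp at 6 h, so the peak is not tied to RPL11A alone. The peak had 294.5 tags at 12 h and 324.7 at 6 h.

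**Figure D3:**
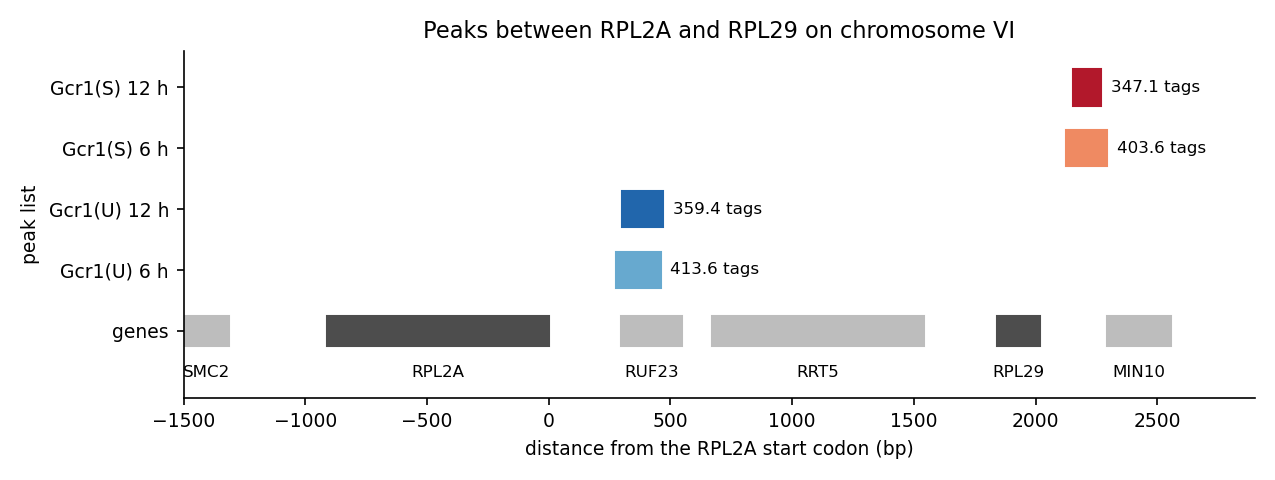
Peak windows of the 4 lists and annotated genes by distance, in bp, from the RPL2A start codon, with normalized tag counts beside the peaks. Gcr1(S) was listed only beside RPL29 (347.1 and 403.6 tags) and Gcr1(U) only beside RPL2A (359.4 and 413.6 tags).

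Absence from a list is not a value of 0. The 4 sites listed in 1 form had more tags than the lowest peak of the other form's lists, which was 169.3 in Gcr1(S) at 12 h, 107.5 in Gcr1(S) at 6 h, 69.8 in Gcr1(U) at 12 h and 69.6 in Gcr1(U) at 6 h. Their fold over local background was 2.01 to 2.68, where the lowest fold in the lists was 2.00 to 2.01. The fold, as the authors' peak caller gave it, was 2.28 at 12 h and 2.22 at 6 h at RPL2B in Gcr1(S), and 2.68 and 2.15 at RPL29. In Gcr1(U) it was 2.01 at 12 h and 2.40 at 6 h at RPL2A, and 2.09 and 2.17 at RPL11A. What either form has at the sites where it is not listed is not known from these lists, so the split between the forms was not tested.

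The fold was next counted over all 7 ribosomal protein peaks of a list, those listed in 1 form included. A fold under 2.5 was held by 3 of the 7 ribosomal protein peaks in Gcr1(S) at 12 h, where 40.8% of all peaks were under it. The count was 6 of 7 in Gcr1(S) at 6 h (19.3% of all peaks), 5 of 7 in Gcr1(U) at 12 h (20.7%) and 3 of 7 in Gcr1(U) at 6 h (41.1%), so in Gcr1(S) at 12 h and Gcr1(U) at 6 h the count was near the background share. RPL26A was never among them, with a fold of 2.69 in Gcr1(S) at 12 h, 4.03 in Gcr1(S) at 6 h, 3.81 in Gcr1(U) at 12 h and 2.70 in Gcr1(U) at 6 h. At RPL42B it was 2.89 in Gcr1(S) at 12 h, the highest of the ribosomal protein peaks away from tRNA genes. RPL42B had 2.04 in Gcr1(S) at 6 h, 2.06 in Gcr1(U) at 12 h and 2.71 in Gcr1(U) at 6 h. RPS24A had 2.06, 2.36, 2.46 and 2.19 in that order of lists, RPL1B 2.33, 2.22, 2.42 and 2.68, and RPS19B 2.5, 2.23, 2.62 and 2.53. No list was highest at all 4 of these genes, so the fold did not order the groups.

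Per bp of window the order of the lists changed. RPL29 had 3.04 tags per bp in Gcr1(S) at 12 h, the densest of the ribosomal protein peaks away from tRNA genes there. At 6 h it had 2.37 in Gcr1(S), where RPS24A had 2.68 and RPL2B 2.45. RPL42B had 2.88 tags per bp in Gcr1(S) at 12 h, 1.99 in Gcr1(S) at 6 h, 1.82 in Gcr1(U) at 12 h and 2.40 in Gcr1(U) at 6 h, so the Gcr1(S) value at 12 h, second lowest by tags, was the highest per bp. At RPL1B the density stayed between 1.59 tags per bp in Gcr1(S) at 6 h and 1.75 in Gcr1(U) at 6 h.

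**Figure D4:**
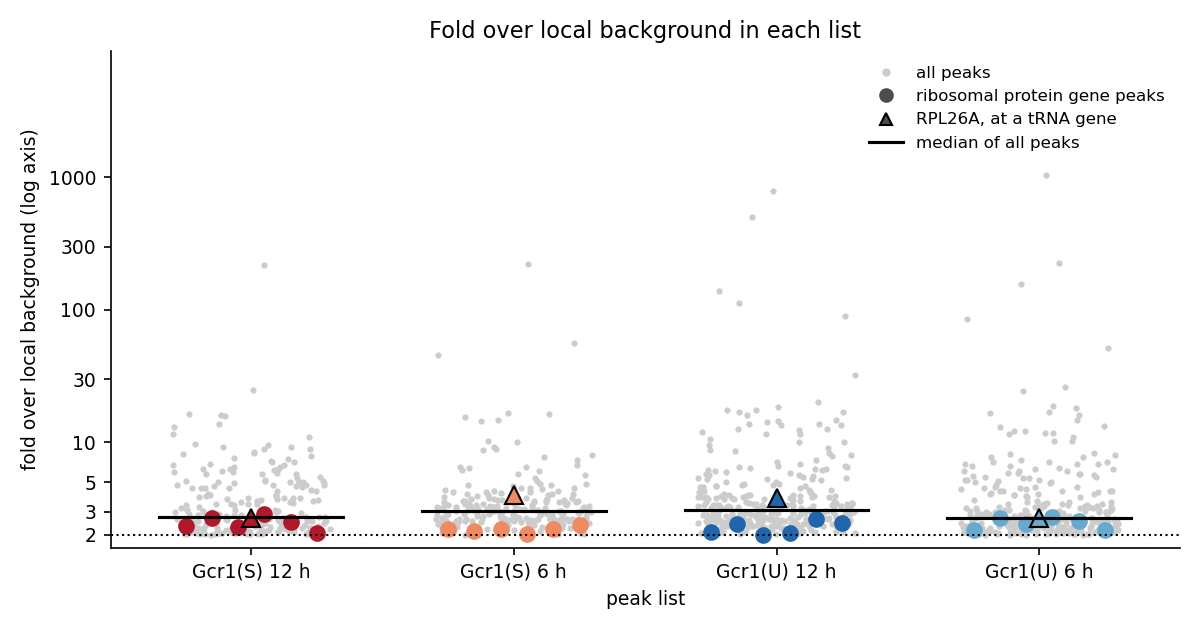
Fold over local background of each peak, on a log axis, in the 4 lists, with all peaks in grey, their median as a line and the ribosomal protein gene peaks in colour. Away from the tRNA gene at RPL26A, these peaks lay between 2.01 and 2.89, near the dotted line at 2.

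By findPeaks score, which ranks peaks within a list, the ribosomal protein peaks were in the upper 50% for 6 of 7 genes in Gcr1(S) at 12 h, 2 of 7 in Gcr1(S) at 6 h, 6 of 7 in Gcr1(U) at 12 h and 7 of 7 in Gcr1(U) at 6 h. In each list 50.2% of all peaks met that limit. RPL26A ranked 24 of 233 in Gcr1(S) at 6 h and 29 of 299 in Gcr1(U) at 12 h, while RPL1B ranked 205 of 233 in Gcr1(S) at either time. The focus ratio, HOMER's measure of how tightly the tags of a peak fall where they are expected, ran from 0.592 to 0.715 over the 28 peaks, against list medians of 0.675 in Gcr1(S) at 12 h, 0.678 in Gcr1(S) at 6 h, 0.692 in Gcr1(U) at 12 h and 0.663 in Gcr1(U) at 6 h.

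At 6 h the comparison of the forms asks whether they occupy these promoters alike during exponential growth. RPL42B was lower in Gcr1(S), with a ratio to Gcr1(U) of 0.776 (0.681 to 0.883), as was RPL1B at 0.849 (0.732 to 0.984). RPS24A was higher in Gcr1(S), at 1.17 (1.032 to 1.32), and RPS19B, at 0.898 (0.788 to 1.02), was not separable from 1 at this depth. None of the 5 shared sites passed a ratio of 1.5 in either direction, where 12.3% of the 162 matched peaks were past it upward and 16.0% past it downward. RPL26A came closest, at 1.496 (1.34 to 1.67). The median log2 ratio was -0.15 over the 5 sites and 0.36 over all matched peaks. The count depends on the scaling. Centring on that overall median put RPL42B at 0.606 and RPL1B at 0.663, both past 1.5-fold downward, and RPS24A at 0.912, below 1. Per bp RPL26A was at 1.602, past the limit upward. The share of all 162 matched peaks past the limit was not counted on these scales, so these calls have no background beside them.

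At 12 h, after the diauxic shift, the same 5 sites were mostly lower in Gcr1(S). RPL1B had a ratio of 0.660 (0.527 to 0.811), RPS19B one of 0.678 (0.563 to 0.813) and RPS24A one of 0.756 (0.635 to 0.895). RPL42B was not separable from 1, at 1.08 (0.902 to 1.28), and RPL26A had the lowest ratio, 0.534 (0.445 to 0.634). RPL1B and RPL26A were past 1.5-fold downward, 2 of 5, beside 50.3% of the 163 matched peaks, and 0 of 5 were past it upward, beside 30.1%. The median log2 ratio was -0.56, near that of all matched peaks, -0.60. Per bp of window the ratios were 0.973 at RPL1B, 0.999 at RPS19B, 1.11 at RPS24A, 1.59 at RPL42B and 0.786 at RPL26A, so the lower tags at the first 3 did not hold on that scale. After centring RPL42B was at 1.63, past 1.5-fold upward, and RPL1B and RPL26A were no longer past it downward, at 1.00 and 0.808. The share of all 163 matched peaks past the limit was not counted per bp or after centring.

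Over time within Gcr1(S), the question is whether the sites hold their tags through the shift. RPL26A had the lowest ratio of 12 h to 6 h, 0.436 (0.363 to 0.519), and RPL2B followed at 0.664 (0.552 to 0.798). RPS24A had 0.671 (0.563 to 0.799), RPL1B 0.708 (0.561 to 0.879) and RPS19B 0.727 (0.598 to 0.879). RPL29, at 0.860 (0.725 to 1.02), and RPL42B, at 0.970 (0.811 to 1.16), were not separable from 1. RPL26A and RPL2B were past 1.5-fold downward, 2 of 7, beside 52.8% of all 233 peaks, and 0 of 7 were past it upward, beside 14.6%. Per bp the direction turned at 5 of the 7, to 1.06 at RPL1B, 1.00 at RPS24A, 1.08 at RPS19B, 1.28 at RPL29 and 1.45 at RPL42B, while RPL2B was at 0.990 and RPL26A at 0.650. After centring neither RPL2B nor RPL26A (0.733) was past 1.5-fold downward, and RPL42B (1.63) was past it upward. Neither the share of all 233 peaks that turned per bp nor the share past the limit after centring was counted. The RPL2B windows at the 2 times were centred 103 bp apart, farther than at any other gene, so its ratio compares partly different stretches of the promoter.

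Within Gcr1(U) the same question was asked of 7 sites. RPL42B had a ratio of 0.6999 (0.620 to 0.793) and RPL2A one of 0.869 (0.771 to 0.978), while RPL26A was higher at 12 h, at 1.22 (1.095 to 1.36). RPL1B, RPL11A, RPS19B and RPS24A had ratios from 0.907 (RPL11A, 0.792 to 1.034) to 1.04 (RPS24A, 0.923 to 1.17), none separable from 1 at this depth with a step of 0.5 tags. With a step of 1 tag the RPL11A interval ended at 0.996, below 1. Per bp RPS19B turned to 1.04, RPL42B was at 0.758 and RPL26A at 1.32. None of the 7 was past 1.5-fold, where 2.68% of the 299 peaks were past it upward and 12.0% downward. The median log2 ratio was -0.13 over the 7 sites and 0.04 over all peaks.

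**Figure D5:**
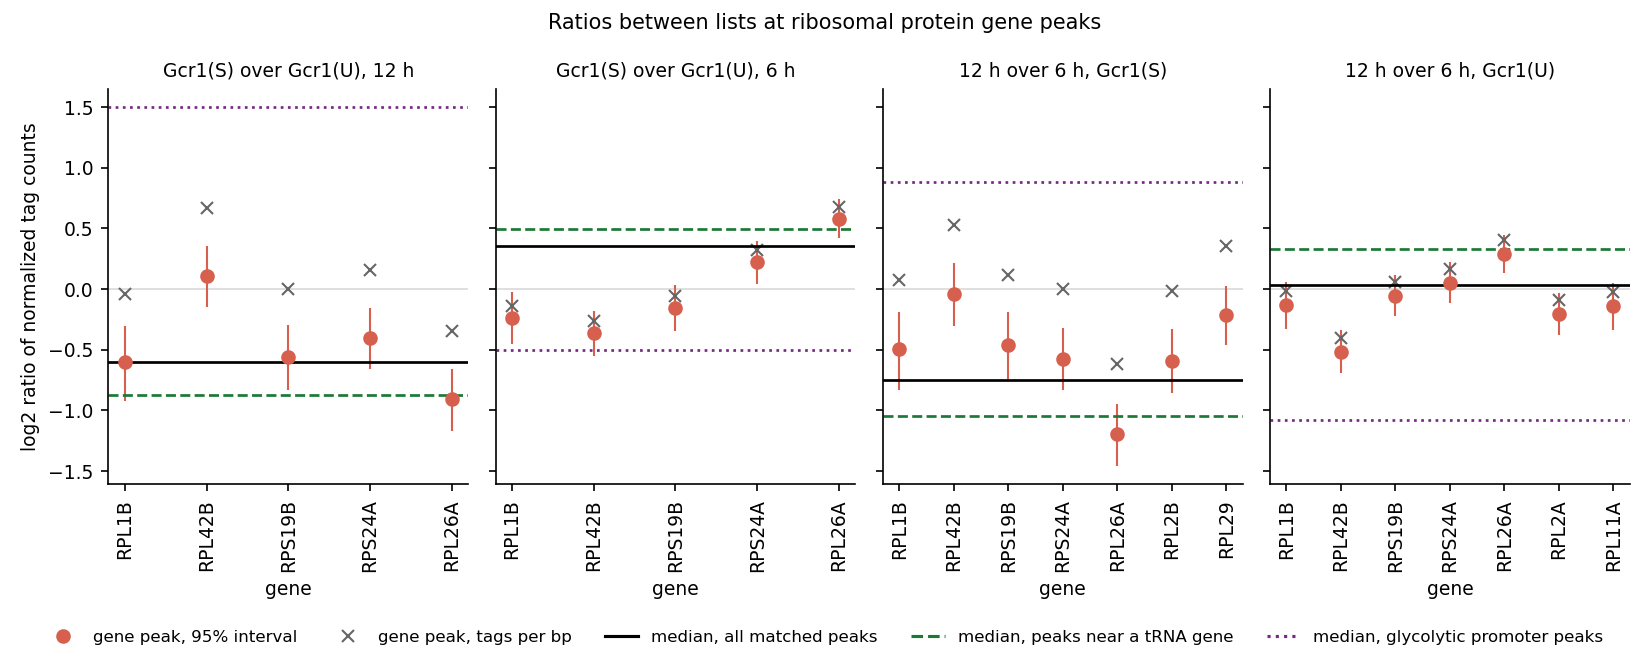
Log2 ratios of normalized tag counts at ribosomal protein gene peaks in the 4 comparisons, with exact binomial 95% intervals for counting error and the ratio per bp of window as crosses. Lines give the medians of all matched peaks, of peaks near a tRNA gene and of glycolytic promoter peaks. RPL26A had the lowest ratio at 12 h between the forms (0.534) and over time in Gcr1(S) (0.436).

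RPL26A had ratios near the medians of the peaks at tRNA genes, among which it is counted, in all 4 comparisons. Between the forms these tRNA medians were 0.547 at 12 h and 1.41 at 6 h, and between 12 h and 6 h they were 0.485 in Gcr1(S) and 1.26 in Gcr1(U). The ribosomal protein peaks away from tRNA genes had medians of 0.716, 0.873, 0.717 and 0.909 in the same order. Other nuclear peaks away from tRNA genes had 1.25, 1.02, 1.27 and 0.954, and the glycolytic promoters 2.83, 0.707, 1.84 and 0.474. Per bp, the median ratio of the forms at 12 h turned to 1.06 at the ribosomal protein peaks away from tRNA genes. On that scale it was 0.806 at tRNA genes, 1.84 at other nuclear peaks away from them and 4.17 at the glycolytic promoters. The median ratio per bp of 12 h to 6 h in Gcr1(S) was 1.07 at the ribosomal protein peaks away from tRNA genes and 2.75 at the glycolytic promoters. It was 0.723 at tRNA genes and 1.89 at other nuclear peaks away from them. With 1 list per group, these differences between sets of peaks could not be tested over samples.

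The duplicates and the regulators of these genes were mostly without a peak. So were nuclear protein-coding genes at large, of which 3.08% to 3.45% had one in a list. None of the 6 other duplicates, RPL1A, RPL11B, RPL26B, RPL42A, RPS19A and RPS24B, had one, and the nearest peak to any of their start codons was 5864 bp away, downstream of that of RPL26B in Gcr1(U) at 6 h. Among 12 regulators (RAP1, FHL1, IFH1, SFP1, CRF1, HMO1, ABF1, TBF1, CBF1, REB1, GCR1 and GCR2) only GCR1 itself had a peak, with 622.1 tags in Gcr1(S) at 12 h, 420.4 in Gcr1(S) at 6 h, 301.6 in Gcr1(U) at 12 h and 420.3 in Gcr1(U) at 6 h. Among 14 genes for cytosolic translation factors 1 had a peak, EFB1, which encodes an exchange factor for elongation factor 1. It had 208.8, 199.7, 179.9 and 305.0 tags in the same order. Its centres lay far from the EFB1 start codon, 919, 826, 904 and 877 bp upstream in that order. A window of 500 bp upstream would leave it out. Which other genes lie at this peak was not listed, so it is not tied to the EFB1 promoter.

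Mitochondrial ribosomal proteins are encoded by a separate set of nuclear genes, and their peaks lay at tRNA genes. Of 76 such genes, Gcr1(S) had a peak at 3 (3.95%), MRPL3, MRPL10 and RSM26, and Gcr1(U) at 1 (1.32%), MRPL3. Among all nuclear protein-coding genes the share was 3.08% to 3.13% for Gcr1(S) and 3.45% for Gcr1(U). Each of the peaks at mitochondrial ribosomal protein genes overlapped a tRNA gene, where among the cytosolic genes RPL26A alone did. MRPL3 had 187.3 tags in Gcr1(S) at 12 h, 414.3 in Gcr1(S) at 6 h, 378.8 in Gcr1(U) at 12 h and 268.4 in Gcr1(U) at 6 h. As at RPL26A, the highest value was that of Gcr1(S) at 6 h and the lowest that of Gcr1(S) at 12 h. RPS24A, away from tRNA genes, had the same highest and lowest lists. In Gcr1(S) MRPL10 was also lower at 12 h, with 224.3 tags against 493.9 at 6 h. RSM26 went the other way, with 515.5 tags at 12 h and 487.4 at 6 h. Its windows were centred 230 bp upstream of the start codon at 12 h and 331 bp at 6 h. The RSM26 values therefore compare partly different stretches.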

How the data were processed

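Binding was measured by ChIP-seq in 8 samples, read from 1 end for 50 cycles after 15 cycles of PCR per the labels. The submitters' processing notes name the build sacCer3 and, with no role or order, HOMER, bedtools, BWA 0.7.15, Picard 2.92, bcl2fastq 1.8.2 and FastQC 0.10.1. How the 2 replicates were combined, and how reads matching both duplicates of a gene were placed, was not stated in these sources.

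Per the file headers, the 4 lists are HOMER findPeaks output. The authors deposited for each peak a normalized tag count (signal), a findPeaks score, a fold over local background (a ratio), a clonal fold change, a p-value against that background, and the focus ratio, a fraction. The clonal fold change and the p-value were not used. The headers give no scale for the signal, and HOMER's default of 10000000 tags was assumed.

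Gene positions came from the RefSeq table of R64, the assembly that sacCer3 represents, and strand from the systematic names. Peaks of the forms were matched by overlap of at least 1 bp, and those of 1 form by order. Python 3.11.15, pandas 2.3.3 and scipy 1.17.1 were used, and the depth estimate, intervals and gene assignment were tested on simulated data. A ratio of at least 1.5, or of at most 0.667, was counted as past 1.5-fold. All 9 genes were named, with their duplicates, neighbours and the listed genes of related function that had a peak. Members and lists were chosen with earlier results of these data known. The search for Gcr1, Rap1, Fhl1, Abf1 and box B motifs was not made, since no genome sequence was used here.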

Additional observations from a re-analysis of the deposited data

Results flagged for a closer look

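At RPL26A and RPS24A the forms differed in opposite directions at the 2 times, with counting intervals on opposite sides of 1. The ratio of Gcr1(S) to Gcr1(U) at RPL26A was 0.5335 at 12 h and 1.496 at 6 h, and at RPS24A it was 0.7561 at 12 h and 1.168 at 6 h. The ratio of 12 h to 6 h at RPL26A was 0.436 in Gcr1(S) and 1.222 in Gcr1(U), again on opposite sides of 1. These differences were not tested, because each group has 1 list. Those at RPL26A were not particular to it. Between the forms, the 81 matched peaks near a tRNA gene had ratios from 0.415 to 0.715 at 12 h and from 1.12 to 1.83 at 6 h. All matched peaks had medians of 0.660 at 12 h and 1.28 at 6 h. Over time the medians near tRNA genes were 0.485 in Gcr1(S) and 1.26 in Gcr1(U). At RPS24A the opposite directions ended per bp of window (1.11 at 12 h and 1.25 at 6 h), while at RPL26A they held (0.786 and 1.602). With fold over local background they stayed opposite at RPS24A (0.837 at 12 h and 1.08 at 6 h), and after centring they swapped (1.15 at 12 h and 0.912 at 6 h). Over time at RPL26A they also held per bp, with 0.650 in Gcr1(S) and 1.32 in Gcr1(U).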

How the results depend on the processing

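The number of ribosomal protein genes with a peak was 6 in place of 7 with a window of 500 bp upstream, and 6 without peaks near tRNA genes, in each list. Giving each peak only to its nearest gene start, within 1000 bp to either side, left the number at 7 in each list. The genes behind that count were not listed, and the RPL11A peak lay nearer to PRE2. In the upper 50% by score the number was 2 in Gcr1(S) at 6 h, RPL26A and RPS24A. The median log2 ratio of the forms at 12 h was -0.00103 per bp, -0.0676 with fold over local background and 0.0390 after centring. The median of 12 h over 6 h in Gcr1(S) became 0.0790, 0.0698 and 0.25 under the same settings, and that of the forms at 6 h became -0.51 after centring. At RPL2B the ratio of 12 h to 6 h in Gcr1(S) reversed, to a log2 of 0.0385 with fold over local background and 0.16 after centring. All but the 6 h comparison of forms involve the shallow Gcr1(S) list at 12 h with its 114 bp windows, and the cause was not tested. With the smallest step taken as 1 tag, 3 of 24 intervals no longer spanned 1, all ending below it: RPL11A over time in Gcr1(U) (0.826 to 0.996), RPL29 over time in Gcr1(S) (0.762 to 0.969) and RPS19B between the forms at 6 h (0.820 to 0.984). Asking for an overlap of 50% left out 1 of 24 ratios, RPL2B over time. No paired analysis was possible because each list covers both replicates with no value for either, and for the same reason no replicate could be left out.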
